A study of Mus musculus with 107 samples.

Results

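The ERK pathway feedback and target genes described here are 10 genes taken by symbol: Spry2, Spry4, Spred1, Spred2, Dusp4, Dusp6, Etv1, Etv4, Etv5 and Egr1. All 10 had an ID among the 51435 gene IDs counted, and all 10 passed the filter on low counts that left 19993 genes for testing. RNA was sequenced from mouse B6NJ embryonic stem (ES) cells as 26 stranded mRNA libraries of 9 lines. These are the undeleted parental line and 2 clones for each of 4 deletions, named after the chromosome that carries the deleted element: chr9-F1, chr9-G9, chr7-D4, chr7-F4, chr3-C2, chr3-H7, chr2-D10 and chr2-G5. Every line had 3 libraries except chr9-F1 with 2. The study removed distal elements bound by Polycomb repressive complex 2 (PRC2), the complex that places the repressive H3K27me3 mark. The deleted intervals are chr9:37451506-37461721 and chr7:143440438-143450716 in mm10, while the labels give no interval for those on chromosomes 3 and 2.

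All RNA groups, the parental line included, grew on irradiated mouse embryonic fibroblast feeders in serum medium with the MEK inhibitor PD0325901 and the GSK3 inhibitor CHIR99021. MEK is the kinase that activates ERK, and the activity of neither was measured here. Each clone is a single derived line, and nothing in the labels ties the replicates of a line to separate cultures. The p-values of the fit to 26 libraries therefore measure the spread between libraries of a line, which may be technical. A second fit summed the counts of each line, took the clone as the replicate and had 4 residual degrees of freedom among 9 lines. Sequencing was deeper in the 8 libraries of the parental line and the chr9 clones, with 90252569 to 127770540 counts, than in the 18 others, with 39702669 to 60219244 counts. Depth is therefore confounded with deletion wherever chr7, chr3 or chr2 clones are set against the parental line or the chr9 clones, and in part where the chr2 clones are set against the 6 other clones. Every chr3 library, with 49329889 to 60219244 counts, was also deeper than every chr2 library, with 39702669 to 48604440 counts. In all these comparisons the effects of depth and deletion cannot be told apart. Levels are in CPM (counts scaled to library size, with TMM factors), and a fold change is on the log2 scale unless given as a ratio. The 10 ES cell markers summed to 7610 to 9591 CPM over the libraries.

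In ES cells FGF4 acts through its receptor, RAS, RAF and MEK to activate the kinases ERK1 and ERK2, which push the cells out of the naive state. ERK in turn raises a set of genes that includes its own inhibitors: Sprouty and Spred proteins act on the steps up to RAF, and dual-specificity phosphatases remove the activating phosphates from ERK itself. The ETS-family factors Etv1, Etv4 and Etv5 and the immediate early factor Egr1 carry the signal to transcription. RNA of these genes is widely read as a record of ERK activity, and ETS factors bind sites around the letters GGAA.

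In all, 8 promoter windows of 6 members stood in the RefSeq table (GRCm38.p6), each covering 250 bases before to 50 bases after a gene start. The windows of the 4 members whose chr2 libraries all lay below every library of the 6 other clones, as did 1.8% of all tested genes, are printed because these members separate the chr2 clones most cleanly. Capitals mark GGAA or its reverse complement TTCC, the ETS core.
Spry2, chr14:105896770-105897069, minus strand: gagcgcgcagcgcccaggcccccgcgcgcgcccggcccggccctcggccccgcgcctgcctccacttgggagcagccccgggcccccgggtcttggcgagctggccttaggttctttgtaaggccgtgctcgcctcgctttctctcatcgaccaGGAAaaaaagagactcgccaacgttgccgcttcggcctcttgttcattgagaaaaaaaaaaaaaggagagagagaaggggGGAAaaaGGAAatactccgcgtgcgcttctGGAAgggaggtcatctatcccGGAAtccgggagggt
Spred1, chr2:117120821-117121120, plus strand: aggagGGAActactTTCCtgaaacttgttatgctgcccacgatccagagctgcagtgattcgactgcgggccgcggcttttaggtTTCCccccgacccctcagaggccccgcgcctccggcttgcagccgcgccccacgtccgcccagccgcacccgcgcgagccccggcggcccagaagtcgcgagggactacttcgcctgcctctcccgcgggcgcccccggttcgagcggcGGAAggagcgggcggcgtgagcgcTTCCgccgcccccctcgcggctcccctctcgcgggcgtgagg
Spred2, chr11:19924192-19924491, plus strand: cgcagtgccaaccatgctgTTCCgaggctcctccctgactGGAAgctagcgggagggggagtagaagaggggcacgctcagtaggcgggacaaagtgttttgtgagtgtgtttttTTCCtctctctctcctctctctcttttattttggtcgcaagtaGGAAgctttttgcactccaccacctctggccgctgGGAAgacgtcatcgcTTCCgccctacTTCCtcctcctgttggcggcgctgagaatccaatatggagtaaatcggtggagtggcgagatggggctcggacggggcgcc
Dusp6, chr10:99262981-99263280, plus strand: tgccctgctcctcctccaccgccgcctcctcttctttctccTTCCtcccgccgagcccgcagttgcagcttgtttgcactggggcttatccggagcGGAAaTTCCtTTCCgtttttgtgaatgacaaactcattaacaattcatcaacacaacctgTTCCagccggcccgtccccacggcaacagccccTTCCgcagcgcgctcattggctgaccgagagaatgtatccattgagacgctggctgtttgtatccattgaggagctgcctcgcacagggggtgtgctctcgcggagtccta
The core occurs 5 times in the Spry2 window, 5 times in that of Spred1, 7 times in that of Spred2 and 6 times in that of Dusp6, against a median of 3 over 32851 promoter windows. In the 4 other member windows it occurs 5 times and 1 time at Etv1 and 0 times and 6 times at Etv5. A core of these 4 letters is present in 96.0% of all windows, counted on both strands. The longer ETS motif CCGGAAG is in 8.86% of all windows and in 0 of the 8 member windows. These matches describe letters in the window and not binding.

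Both chr2 clones had less RNA of most of these genes than the mean of the 6 other clones. Each had 8 of the 10 members called lower, beside 5367 (chr2-D10) and 4892 (chr2-G5) of 19993 genes. In chr2-G5 these 8 included Dusp4 (log2 -0.44) and not Etv1. Not every other clone lay above chr2-G5: Spry4 had a mean of 8.69 CPM in chr2-G5 and 7.38 CPM in chr9-G9. The mean of both chr2 clones was lower than that of the 6 clones of the other deletions for 8 of the 10 members. These were Spry2, Spry4, Spred1, Spred2, Dusp6, Etv1, Etv4 and Etv5, where 27.4% of all tested genes were lower by the same rule. The members were chosen with earlier results of these data known, so such counts describe them and do not test them. Dusp4 was called higher, as were 30.1% of all tested genes, and Egr1 did not pass. The median change of the 10 members was -0.71, beside 0.01 over all genes tested. In a test against a 1.5-fold change, 5 members were lower (Spry2, Spry4, Dusp6, Etv1 and Etv4) beside 2.06% of all genes. Taken alone against the 6 other clones, chr2-D10 had 7 members lower past 1.5-fold, beside 786 of 19993 genes. The clone chr2-G5 had 2, beside 597 of 19993 genes. With the clone as the replicate, 5 members were lower (Spry2, Spry4, Spred1, Spred2 and Dusp6) beside 3.17% of all genes, and the Etv genes no longer passed. In bulk RNA, fewer cells that express a gene and less RNA per cell cannot be told apart.

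**Figure D1:**
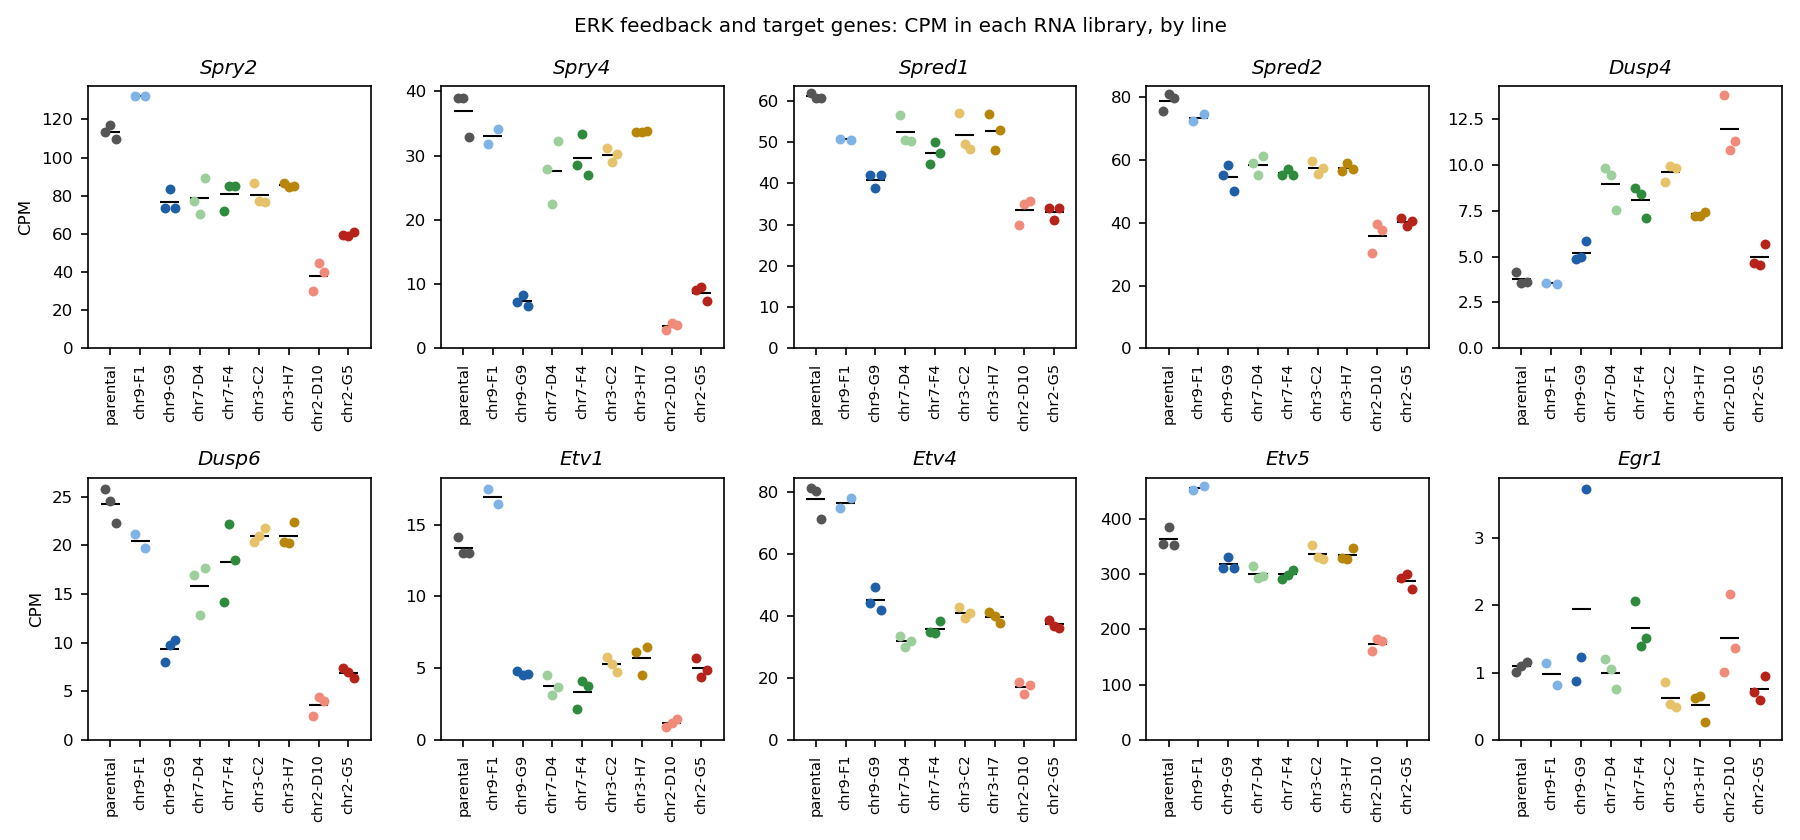
CPM of the 10 members (vertical axes, from 0) in each of the 26 RNA libraries, grouped by line. Points are libraries and black bars line means. The chr2 libraries lie lowest for Spry2, Spred1, Spred2 and Dusp6, with 29.9 to 61.0 CPM against 70.2 to 132 CPM in the 6 other clones for Spry2.

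Sprouty genes encode inhibitors that are induced by the signal they restrain. Spry2 (chr14:105891947-105896819) stood at 29.9, 44.7 and 39.9 CPM in the 3 chr2-D10 libraries and at 59.5, 58.7 and 61.0 CPM in those of chr2-G5. The 17 libraries of the 6 other clones ranged from 70.2 to 132 CPM with a median of 84.6 CPM, and the parental libraries had 113, 117 and 110 CPM. No chr2 library reached the range of the others, and chr9-F1 was the highest line with 132 CPM in each of its libraries. The chr2 clones were 1.83-fold lower than the 6 other clones (log2 -0.87 ± 0.055 SE, edgeR adjusted p = 4.42e-15), with an adjusted p of 0.0427 in edgeR when the clone was the replicate.

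Spry4 (chr18:38586247-38601347) showed the largest change among the members in this comparison. Its level was 2.83, 3.898 and 3.62 CPM in chr2-D10 and 9.10, 9.54 and 7.42 CPM in chr2-G5. In the 12 chr7 and chr3 libraries it ranged from 22.4 to 33.9 CPM with a median of 30.7 CPM, and the parental line had 38.9, 39.0 and 32.8 CPM. The chr9 clones split: chr9-F1 had 31.8 and 34.1 CPM, while chr9-G9 had 7.26, 8.37 and 6.52 CPM, within the range of the chr2 libraries. Against the 6 other clones the ratio was 4.43-fold lower (log2 -2.15 ± 0.078 SE, edgeR adjusted p = 2.60e-21), with an edgeR adjusted p of 0.0473 at the level of clones. Against the chr7 and chr3 clones alone, which are nearer to the chr2 clones in depth than the chr9 clones are, it was 5.52-fold lower (edgeR adjusted p = 0.0305 at the level of clones).

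Spred1 (chr2:117121071-117182279) and Spred2 (chr11:19924442-20024026) encode membrane proteins that hold back RAF activation. Spred1 lies on the chromosome that carries the chr2 deletion, and its distance from the deleted element was not analysed here. Spred1 had 29.9, 35.0 and 35.7 CPM in chr2-D10 and 33.97, 31.2 and 33.9 CPM in chr2-G5, against 38.8 to 57.1 CPM (median 50.1) in the 17 other clone libraries and 62.0, 60.6 and 60.7 CPM in the parental line. Spred2 had 30.3, 39.6 and 37.8 CPM in chr2-D10 and 41.5, 38.9 and 40.4 CPM in chr2-G5, against 49.96 to 74.5 CPM (median 57.2) in the other clones and 75.5, 81.0 and 79.6 CPM in the parental line. For both genes the chr2 libraries did not overlap those of any other clone. The changes against the 6 other clones were modest in size, 1.47-fold lower for Spred1 (log2 -0.56 ± 0.043 SE, edgeR adjusted p = 5.93e-13) and 1.56-fold lower for Spred2 (log2 -0.64 ± 0.041 SE, edgeR adjusted p = 6.03e-15). With the clone as the replicate, edgeR gave an adjusted p of 0.0127 for Spred1 and 0.0134 for Spred2.

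Dusp6 (chr10:99263231-99267489) encodes a cytoplasmic phosphatase that acts on ERK with high selectivity. The chr2-D10 libraries held 2.43, 4.38 and 3.98 CPM and the chr2-G5 libraries 7.40, 6.99 and 6.32 CPM. The other clones ranged from 7.99 to 22.4 CPM with a median of 19.7 CPM, and the parental line had 25.8, 24.6 and 22.3 CPM. All 6 chr2 libraries lay below all 17 others, and the nearest line was chr9-G9 with 7.99, 9.81 and 10.3 CPM. The ratio was 3.42-fold lower against the 6 other clones (log2 -1.77 ± 0.093 SE, edgeR adjusted p = 4.92e-17), with an edgeR adjusted p of 0.0163 at the level of clones.

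Dusp4 (chr8:34807610-34819894), a nuclear phosphatase of ERK, followed another course. It had 4.17, 3.53 and 3.63 CPM in the parental line, 3.59 and 3.48 CPM in chr9-F1 and 4.86, 4.97 and 5.82 CPM in chr9-G9. The 12 chr7 and chr3 libraries lay higher, at 7.09 to 9.95 CPM with a median of 8.56 CPM. The 2 chr2 clones lay on opposite sides of that range, with 13.8, 10.8 and 11.3 CPM in chr2-D10 and 4.66, 4.54 and 5.67 CPM in chr2-G5. Their mean was 0.19 ± 0.069 (SE) higher than that of the 6 other clones on the log2 scale (edgeR adjusted p = 0.0167), a call that was lost without chr2-D10 replicate 1 or chr2-G5 replicate 3. Against the chr7 and chr3 clones the log2 difference was -0.13 ± 0.073 (SE) and did not pass (edgeR adjusted p = 0.127).

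Etv1 (chr12:38780082-38870483), Etv4 (chr11:101769747-101785310) and Etv5 (chr16:22381313-22439570) encode closely related ETS transcription factors. Their fall in the chr2 clones rested mainly on chr2-D10. Etv1 had 0.876, 1.188 and 1.46 CPM in chr2-D10 but 5.71, 4.39 and 4.85 CPM in chr2-G5, inside the 2.14 to 6.45 CPM of the chr7 and chr3 libraries. Etv4 had 18.6, 14.7 and 17.8 CPM in chr2-D10 and 38.9, 36.9 and 36.3 CPM in chr2-G5, against 30.04 to 43.0 CPM in the chr7 and chr3 libraries. Etv5 had 161, 182 and 179 CPM in chr2-D10 and 292, 299 and 273 CPM in chr2-G5, against 291 to 353 CPM in the chr7 and chr3 libraries. Thus the chr2-D10 libraries lay below all libraries of the other clones for each of the 3 genes, while those of chr2-G5 overlapped them. The share of all tested genes with the chr2-D10 libraries below the others in this way was not counted.

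Against the 6 other clones the mean of the chr2 clones changed by log2 -1.21 ± 0.11 (SE) for Etv1, -0.78 ± 0.045 for Etv4 and -0.59 ± 0.030 for Etv5 (edgeR adjusted p = 5.06e-11, 5.48e-16 and 1.97e-17). For chr2-G5 alone the log2 differences were -0.16 for Etv1, -0.21 for Etv4 and -0.23 for Etv5, and that of Etv1 did not pass (edgeR adjusted p = 0.30). With the clone as the replicate none of the 3 passed in edgeR (adjusted p = 0.332, 0.165 and 0.103 in the same order).

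Egr1 (chr18:34861207-34864956), an immediate early zinc finger factor, was near the bottom of the measured range. Its libraries held 13 to 398 counts in the 8 clones, at 0.265 to 3.73 CPM. The highest was a single chr9-G9 library with 3.73 CPM, beside 0.870 and 1.23 CPM in the other two of that clone. The chr2 libraries, at 0.595 to 2.17 CPM, lay inside the range of the others. The difference from the 6 other clones was log2 0.09 ± 0.24 (SE; edgeR adjusted p = 0.756), and its sign depended on the libraries used. Against the chr3 clones alone, a comparison added after seeing the data, Egr1 was higher (log2 0.90, edgeR adjusted p = 0.0108).

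**Figure D2:**
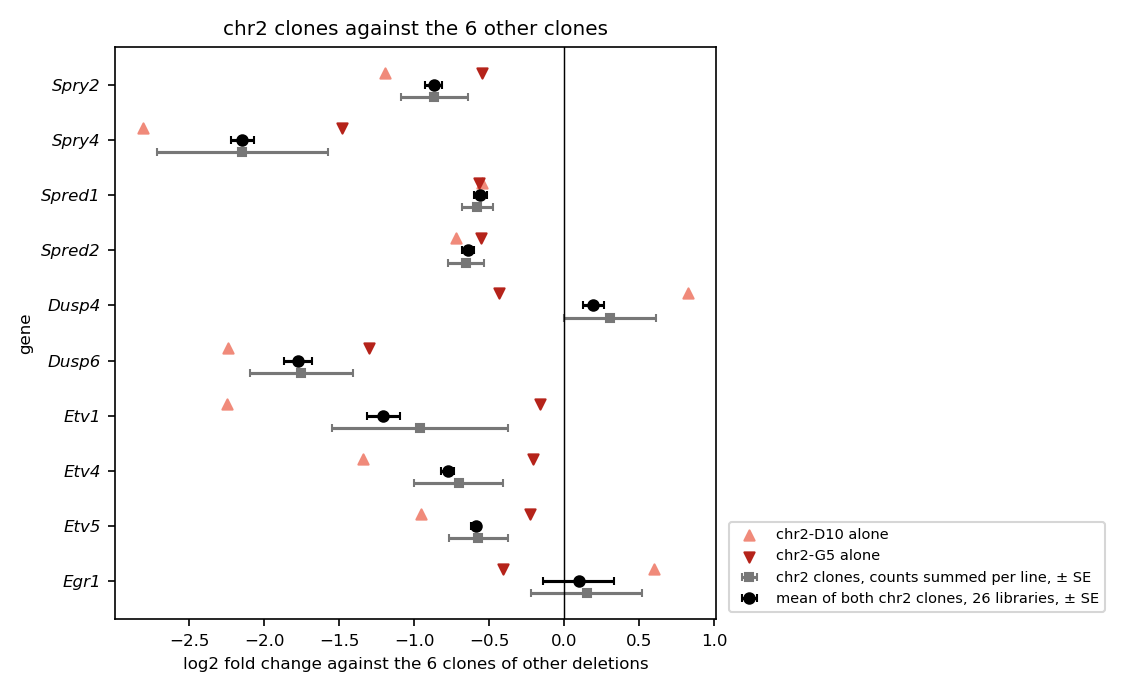
Log2 fold change of each member in the chr2 clones against the 6 clones of other deletions. Black circles give the mean of both clones ± SE from 26 libraries, grey squares the fit with counts summed per line ± SE, and triangles each chr2 clone alone. For Spred1 and Spred2 both clones lie near the mean, while for Etv1 chr2-D10 lies at -2.25 and chr2-G5 at -0.16.

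Within the lower depth range, where the chr2 clones were set against the chr7 and chr3 clones, the same 8 members were lower (28.5% of all genes were lower). Depth still differed there, as every chr3 library was deeper than every chr2 library. Their log2 differences there were -2.46 for Spry4, -1.92 for Dusp6, -0.87 for Etv1, -0.77 for Spry2, -0.61 for Spred1, -0.59 for Spred2, -0.55 for Etv4 and -0.50 for Etv5. Past 1.5-fold 4 were lower, Spry2, Spry4, Dusp6 and Etv1, beside 3.36% of all genes. With the clone as the replicate 4 remained in this comparison, Spry4, Spred1, Spred2 and Dusp6, beside 5.24% of all genes, and Spry2 had an edgeR adjusted p of 0.0586. Against the chr9 clones 8 members were lower beside 32.9% of all genes, 7 of them past 1.5-fold beside 7.76% of all genes. Dusp4 was higher than in the chr9 clones, also past 1.5-fold, as were 29.8% of all genes and, past 1.5-fold, 7.14%. Depth differs between these groups. At the level of clones Spry2, Spred2 and Dusp6 passed there, beside 5.17% of all genes. These comparisons share the chr2 libraries, so they are not independent of each other.

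Against the parental line each deletion had members called, and the parental libraries are shared by all these comparisons. The chr2 clones had 8 members lower, beside 34.1% of all genes, and all 8 were lower past 1.5-fold, beside 9.27% of all genes. Dusp4 was higher there (31.2% of all genes), also past 1.5-fold (12.3% of all genes). The chr7 clones also had 8 members lower (35.7% of all genes) and the chr3 clones 8 (35.4% of all genes), among them Egr1 and without Dusp6. The chr3 count was 6 in DESeq2 and 6 to 8 on leaving out 1 library. In the chr7 clones and in the chr3 clones only 2 were lower past 1.5-fold, Etv1 and Etv4, beside 10.9% and 9.36% of all genes. Dusp4 was higher past 1.5-fold in both, beside 9.12% and 7.08% of all genes. The chr9 clones had 6 lower beside 20.6% of all genes, and 1 past 1.5-fold, Spry4, beside 0.555% of all genes. With the clone as the replicate, Spry2, Spred1, Spred2 and Dusp6 stayed lower in the chr2 clones, beside 4.53% of all genes. In the chr9, chr7 and chr3 clones edgeR then called 0 members, beside 0.015%, 1.82% and 1.18% of all genes lower, with 1, 4 and 2 members at an unadjusted p under 0.05.

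The libraries of the parental line and chr9-F1 lay above all libraries of the other 7 clones for Etv1, Etv4, Spry2 and Spred2, and below all of them for Dusp4. The share of all tested genes that split in this way was not counted, so this describes these members only. Etv1 had 14.2, 13.03 and 13.01 CPM in the parental line and 17.5 and 16.4 CPM in chr9-F1, against 0.876 to 6.45 CPM in the other 7 clones. Etv4 had 81.5, 80.5 and 71.4 CPM in the parental line and 75.0 and 78.3 CPM in chr9-F1, against 14.7 to 49.6 CPM in those 7 clones. Dusp4 ran the other way in the chr7 and chr3 clones, with log2 changes of 1.17 and 1.15 against the parental line (edgeR adjusted p = 1.82e-11 and 3.56e-11). Of all genes, 27.6% were higher in the chr7 clones and 25.4% in the chr3 clones, and past 1.5-fold 9.12% and 7.08%. With the clone as the replicate these Dusp4 changes did not pass (edgeR adjusted p = 0.148 and 0.175).

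Counted clone by clone against the parental line, chr9-F1 had 1 member lower, Spred1, beside 12% of all genes, and 1 higher, Etv5, beside 12.2%. The Spred1 call in chr9-F1 was lost on leaving out either library of that clone. The clone chr9-G9 had 8 lower beside 24.5% of all genes, chr7-D4 8 beside 33.1%, chr7-F4 8 beside 32.2%, chr3-C2 6 beside 32.2% and chr3-H7 7 beside 31.8%. With counts thinned to the smallest library chr3-H7 had 4. Both chr2 clones had 8 lower, beside 33.7% of all genes in chr2-D10 and 29.1% in chr2-G5. The median change of the 10 members was -1.35 in chr2-D10 and -0.94 in chr2-G5, then -0.57 in chr9-G9, and between -0.43 and -0.10 in the other 5 clones.

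The 2 clones of a deletion did not always carry the same level. Between chr9-G9 and chr9-F1, 8 members were lower in chr9-G9 beside 17.4% of all genes, and Spry4, Etv1 and Dusp6 were lower past 1.5-fold beside 0.44% of all genes. Dusp4 was higher in chr9-G9, as were 14.1% of all genes. The log2 differences were -2.16 ± 0.12 (SE) for Spry4, -1.86 ± 0.16 for Etv1 and -1.13 ± 0.14 for Dusp6 (edgeR adjusted p = 6.14e-15, 2.30e-10 and 2.37e-07). Feeder fibroblast RNA also differed: the feeder markers without Fn1, Sparc and Vim summed to 256 to 520 CPM in the chr9-G9 libraries and 126 to 173 CPM in those of chr9-F1, and its part in the result was not tested.

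Between the chr2 clones, 7 members were higher in chr2-G5 than in chr2-D10 beside 25.7% of all genes, and 2 were lower, Dusp4 and Egr1, beside 25% of all genes. Past 1.5-fold 5 were higher, Spry4, Dusp6, Etv1, Etv4 and Etv5, beside 5.82% of all genes, and Dusp4 was lower beside 4.62%. Spred1 did not differ past the test between them (log2 -0.02 ± 0.073 SE, edgeR adjusted p = 0.838). The calls for Spred2 (log2 0.17, edgeR adjusted p = 0.0441) and Egr1 (log2 -1.004, edgeR adjusted p = 0.0391) were each lost on leaving out single libraries. Between the chr7 clones and between the chr3 clones edgeR called 0 members, beside 0.965% and 0.86% of all genes, with 2 and 1 members at an unadjusted p under 0.05. DESeq2 called 0 members between the chr7 clones and 1 between the chr3 clones, Dusp4.

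**Figure D3:**
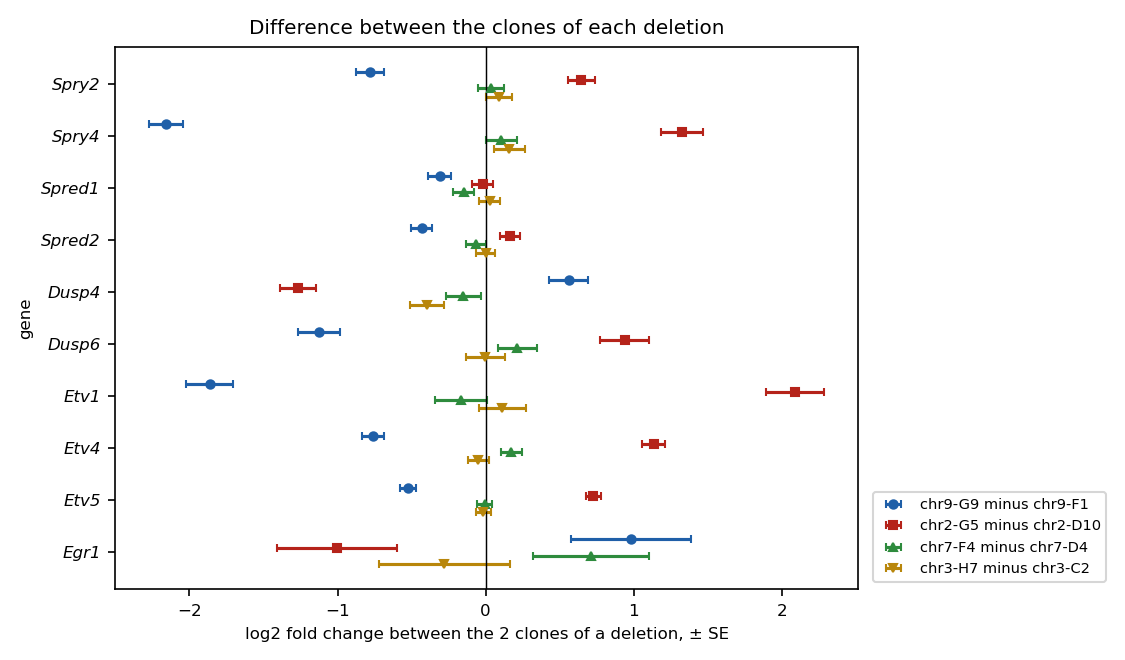
Log2 fold change ± SE between the 2 clones of each deletion, for each member. Blue circles (chr9) and red squares (chr2) lie far from 0 on opposite sides for Spry4, at -2.16 and 1.33, while green and yellow triangles (chr7 and chr3) lie near 0.

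Across the 9 line means most members varied together. The Pearson correlation of a member's log2 CPM with the mean profile of the other 9 was 0.98 for Spred2, 0.96 for Spry2, 0.93 for Dusp6, 0.88 for Spred1, 0.87 for Spry4 and Etv5, 0.82 for Etv4 and 0.79 for Etv1. Dusp4 stood at -0.64 and Egr1 at -0.32. These 9 points share their libraries and size factors among genes, and the lines of a deletion share that deletion. The 5 other genes whose line means were most like the mean profile of the members were Lrch4 (r = 0.99), Mepce (0.99), Smad7, the inhibitory SMAD of TGF-beta signalling (0.98), Gon4l (0.98) and Epn1 (0.98). Smad7 fell from 63.2 CPM in the parental line to 23.8 CPM in chr2-D10 and 28.7 CPM in chr2-G5.

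Other genes of the pathway, listed by step, moved in both directions in the chr2 clones against the 6 others. Of 18 ligands and receptors, 6 were higher and 7 lower, with a median change of -0.06. Egfr, a receptor tyrosine kinase, was higher (4.57 to 5.78 CPM by chr2 clone, log2 0.96), as were Fgfr3 (log2 0.69) and the insulin receptor Insr (log2 0.51), and the FGF ligand Fgf17 was lower (log2 -0.86). Of 16 adaptors and RAS proteins, 4 were higher and 8 lower. Mras (log2 -0.66), Gab1 (log2 -0.42) and Nras (log2 -0.35) fell and the docking protein Gab2 rose (log2 0.57). Of 18 genes of the kinase cascade and its scaffolds, 6 were higher and 7 lower, led by Rps6ka3, which encodes the ERK-activated kinase RSK2 (log2 0.74). The scaffold gene Ksr2 was higher (log2 0.43), and Lamtor3 (log2 -0.42) and Pea15a (log2 -0.39) were lower. All these calls carry edgeR adjusted p under 0.05, a rule that called 57.5% of all genes.

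Among 20 other measured negative regulators, 6 were higher and 7 lower with a median of -0.01. Dusp9, an X-linked phosphatase of ERK, moved furthest: the mean was 127 CPM for the parental line (SD 2.8, n = 3), 116 to 147 CPM as the means of the chr7 and chr3 clones, 200 ± 7.6 CPM (n = 2) in chr9-F1, 286 ± 8.7 CPM in chr9-G9, 435 ± 19 CPM in chr2-D10 and 356 ± 29 CPM in chr2-G5. It was higher in the chr2 clones by log2 1.28 ± 0.029 (SE, edgeR adjusted p = 8.37e-27). Spry1, the third measured Sprouty gene, was lower (log2 -0.39), and Dusp8 (log2 0.76) and Dusp5 (log2 0.30) were higher.

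Of 27 other tested ERK targets, 9 were higher and 10 lower with a median of -0.18. Myc fell to 0.236 CPM in chr2-D10 but stood at 3.04 CPM in chr2-G5, against 1.188 to 23.7 CPM as the means of the other clones (log2 -1.91). Plaur, the urokinase receptor gene, had 4.91 and 5.00 CPM in the chr2 clones, 4.90 CPM in chr9-G9 and 9.93 to 14.5 CPM in the other 5 clones (log2 -1.13). Elk3, a ternary complex factor, was lower (log2 -0.92), and Ets2 was higher, at 37.8 and 70.6 CPM against 20.4 to 42.7 CPM (log2 0.94). Of 10 genes known to fall with ERK activity or to rise when MEK is inhibited, 3 were higher and 6 lower: the naive-state factor Prdm14 rose (log2 1.12), as did Tcl1 (log2 0.51), and Tbx3 (log2 -0.67) and Nr0b1 (log2 -0.50) fell. Of 13 tested Wnt targets, read here because CHIR99021 acts on that pathway, 3 were higher and 6 lower, with a median of -0.03. Sp5 (log2 -1.03, at most 0.319 CPM as a chr2 clone mean), Axin2 (log2 -0.87) and Rnf43 (log2 -0.68) were lower, and Apcdd1 was higher (log2 0.96). These splits depended on the clones compared. Against the chr7 and chr3 clones alone, 6 Wnt targets were higher and 3 lower (median 0.14), but against the chr9 clones 1 and 9 (median -0.93). The genes that fall with ERK activity had 3 higher and 3 lower (median -0.02), then 2 and 7 (median -0.34). The other ERK targets had 8 and 9 (median -0.05), then 8 and 14 (median -0.50). Of all genes, 28.5% and then 32.9% were lower.

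RNA from the X chromosome also differed between the clones. The median log2 change of 735 tested X-linked genes against the parental line was 0.83 in chr2-D10 and 0.87 in chr2-G5, 0.50 in chr9-G9 and 0.33 in chr9-F1, and between -0.02 and 0 in the 4 chr7 and chr3 clones, while the medians of 17201 autosomal genes lay between -0.09 and -0.02. Y-linked RNA summed to 7.29 CPM in the parental line, 0.151 and 0.313 CPM in the chr2 clones, 0.382 and 1.08 CPM in the chr9 clones and 2.48 to 11.4 CPM in the chr7 and chr3 clones. The 3 clones with the lowest median over the members were also the 3 with the highest X-linked medians and the highest Dusp9. The other 5 did not follow that order: chr9-F1, with an X-linked median of 0.33, had the smallest change of the members at -0.10, while the chr7 and chr3 clones, with X-linked medians of -0.02 to 0, had -0.43 to -0.31. The pathway genes Araf, Rps6ka3, Elk1 and Dusp9 lie on the X and were higher in the chr2 clones, while the X-linked Nr0b1 was lower (log2 -0.50). Leaving all X- and Y-linked genes out of the fit left the same 8 members lower. Every member is autosomal, so that refit could change only size factors and the shared spread, and it does not bear on X-linked dosage. The part of X-linked dosage in the members' change was not tested.

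**Figure D4:**
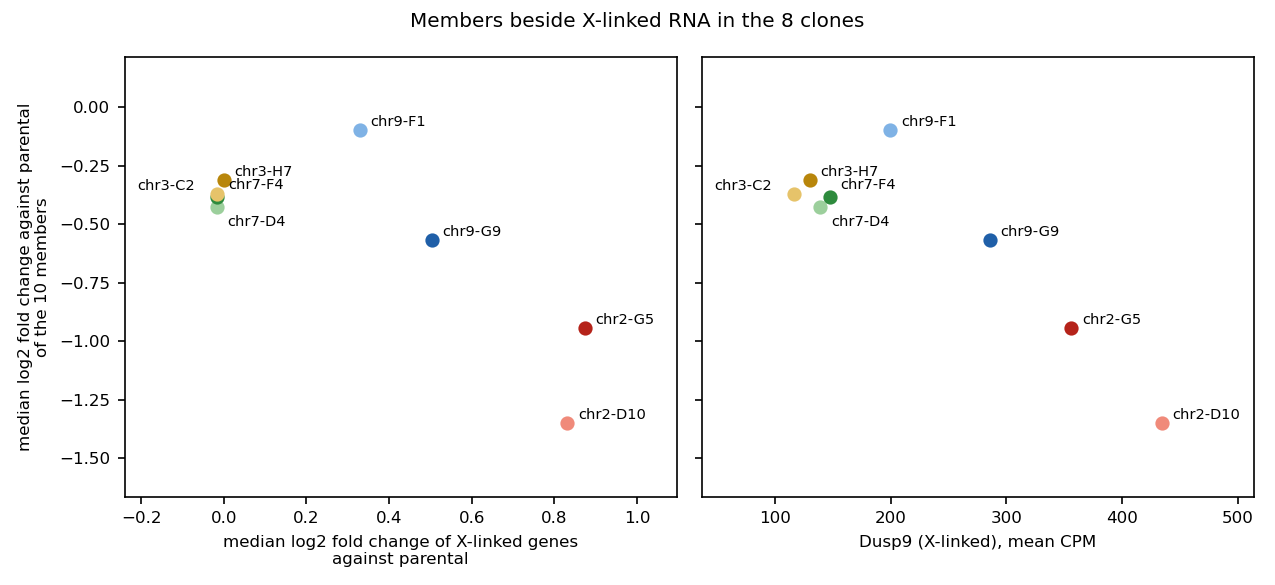
Median log2 fold change of the 10 members against the parental line (vertical axes) in each of the 8 clones, beside the median change of X-linked genes (left) and the mean CPM of the X-linked phosphatase gene Dusp9 (right). The chr2 clones lie lowest, at X-linked medians of 0.83 and 0.87, while chr9-F1 lies highest at 0.33. The points share the parental libraries.

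Markers of other cells that a culture could hold were summed for each line. Of 23 tested feeder markers, 13 were higher and 4 lower in the chr2 clones against the 6 others. Against the chr7 and chr3 clones alone 17 were higher and 1 lower, but against the chr9 clones 2 were higher and 18 lower. The largest changes against the 6 others were Dcn (log2 1.81 ± 0.76 SE, edgeR adjusted p = 0.0439), Col5a1 (log2 0.97), Postn (log2 0.88) and Col3a1 (log2 0.87), all higher. The whole feeder list summed to 1878 to 3006 CPM over the chr2 libraries, 2005 to 3575 CPM over those of the other clones and 1967 to 2255 CPM over the parental ones. Its line means were 2085 CPM in the parental line, 2822 CPM in chr2-D10 and 1895 CPM in chr2-G5. They were 2053 and 2331 CPM in the chr9 clones and 2694 to 3411 CPM in the chr7 and chr3 clones. The feeder markers without Fn1, Sparc and Vim summed, as line means, to 112 CPM in the parental line, 114 and 121 CPM in the chr2 clones, 149 and 353 CPM in the chr9 clones and 45.9 to 85.8 CPM in the chr7 and chr3 clones. Over single libraries that sum ran from 45.4 to 520 CPM. The sums with and without Fn1, Sparc and Vim ranked the lines differently. The clone chr3-C2 was highest on the whole list (3411 CPM) and lowest without these genes (45.9 CPM), and chr2-G5 was lowest on the whole list. Of the list, Lum was at 0 in 17 of 26 libraries, Twist2 in 16, Dcn in 12 and Prrx1 in 1, and every other feeder marker had counts in each library. The 12 primitive endoderm markers summed to 371 CPM in chr2-D10 and 270 CPM in chr2-G5, against 231 to 315 CPM in the other clones and 204 CPM in the parental line. Of these 12, 4 were higher and 4 lower in the chr2 clones against the 6 others, with Cubn (log2 -2.51), Sox7 (log2 -1.97) and Dab2 (log2 -1.26) lower and Col4a2 higher (log2 0.86). Of the 10 ES cell markers, 3 were higher and 6 lower, with Utf1 (log2 -0.85), Klf4 (log2 -0.47) and Esrrb (log2 -0.46) lower and Dppa5a higher (log2 0.47). The part of either cell type in the members' change was not tested.

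Chromatin at the members was mapped in E14 ES cells, a second mouse line grown with serum and LIF and without feeders, for which no MEK inhibitor is named. The peak lists are pooled calls, so they carry no replicate error, and fold enrichments are the authors' values per peak. All 10 members had an RNA polymerase II peak within 2 kb of the gene, as did 68.0% of tested genes with a position. PRC2 peaks lay at 5 of 10, Dusp4, Spred2, Egr1, Dusp6 and Etv4, beside 43.2% of tested genes. H3K27me3 lay at 2 of 10, Dusp4 and Egr1, beside 16.2% of tested genes.

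The PRC2 peak at Dusp4 was the longest and strongest at a member, with 6245 bp at chr8:34804574-34810818 across the first base of the gene and a 7.24-fold enrichment. The peaks at Egr1 (2.84-fold), Dusp6 (1.94-fold) and Etv4 (1.60-fold) were weaker. That of Spred2 (5.12-fold) was 435 bp long and lay inside the gene at chr11:19999851-20000285. The strongest RNA polymerase II ChIA-PET peak at Spred2, chr11:19999851-20000288, covers the same stretch, and why both lists hold it was not tested. The Dusp6 peak, chr10:99263069-99263447, runs into the promoter window printed above. The 2 members with H3K27me3, Dusp4 and Egr1, were also the 2 whose RNA did not follow the other 8 across the lines, as a description of 10 genes with no test. The Egr1 H3K27me3 peak was 438 bp long, and 3.96% of the peaks in its list had a lower fold enrichment. For the Dusp4 H3K27me3 peak, 1938 bp long, that share was 56.5%. Egr1 also had the strongest RNA polymerase II ChIP peak of the members, at 31.7-fold. Egr1 RNA was near the bottom of the measured range, and the part of counting error in its course was not tested.

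Interactions of PRC2-bound chromatin were listed in the same E14 cells. In the pooled E14 list Dusp4 had 13 interactions with 146 paired-end tags, the strongest to another place ending at chr8:25226368-25227369 near Tacc1 with 40 tags. Spred1 had 2205 tags, of which 2178 joined it to chr2:98661285-98668274, a stretch that takes part in 8660 interactions of the list with 1643362 tags. The other members had 11 to 79 tags. In Ezh2 ChIA-PET of B6NJ lines (the parental line, both chr9 clones and both chr7 clones, 2 libraries each), an interaction within 2 kb of Dusp4 was listed in 9 of 10 libraries, of Egr1 in 7, of Spred2 in 3 and of Etv4 in 2, and 0 libraries listed one at the other 6 members. The libraries held 4734 to 9354 interactions each, so an interaction at a member that was not listed may have been below what this depth detects. The label of 1 chr9-F1 library of this assay names parental cells as the cell type, and Dusp4 and Egr1 had interactions in the other chr9-F1 library too. No chr2 or chr3 clone was in this assay. For the E14 and the B6NJ interactions no share over all tested genes is given, so these counts describe the members only.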

How the data were processed

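RNA was counted in 26 libraries of 9 lines. The authors deposited raw counts per gene, and per the submitters' processing notes Trim Galore 0.4.0, HISAT2 2.1.0, HTSeq 0.6.1 and Cufflinks were used for these data, on mm10. No source used here says whether counting took strand into account. The deposited peak lists give a fold enrichment, a ratio to background, and −log10 p-values, made with MACS2 2.1.1.20160309 and BWA 0.7.12 per the submitters' processing notes. The deposited interaction lists give paired-end tag counts and a p-value for each pair. Summary lines of the count files were left out of library sizes: no feature took 3.50 to 5.80%, ambiguous 0.943 to 1.08% and reads placed more than once 15.0 to 17.2% of all reads in a file.

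The 26 libraries were fitted together in edgeR 4.0.16 (R 4.3.3; limma 3.58.1) with TMM factors, filterByExpr and the quasi-likelihood test, 1 coefficient per line, and Benjamini-Hochberg adjustment over 19993 genes at 0.05. The common biological coefficient of variation was 7.39%. A test against a 1.5-fold change, a fit of counts summed per line, DESeq2 1.42.0 and the leaving out of each library were alternatives. Gene names matched 99.6% of IDs. Peaks and interactions were taken within 2 kb of a gene. Promoter and gene positions are RefSeq's on GRCm38.p6, and motifs were read on both strands.

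The members and the gene lists were chosen with earlier results of these data known. Besides the members, up to 4 called genes per list were named, largest change first, and the 5 genes of at least 5 CPM most like the members' mean profile; X-linked pathway genes were named for their position. Egr1 had the fewest counts, so counting error weighs most there. The scripts were tested on simulated data.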

Additional observations from a re-analysis of the deposited data

Results flagged for a closer look

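Members that differed between the 2 clones of 1 deletion by more than 1.5-fold in edgeR's test drew attention, because clones of a deletion share the removed element. In chr9-G9 minus chr9-F1 the log2 differences were -2.16 for Spry4, -1.86 for Etv1 and -1.13 for Dusp6. In chr2-G5 minus chr2-D10 they were 2.09 for Etv1, 1.33 for Spry4, 1.14 for Etv4, 0.94 for Dusp6 and 0.73 for Etv5, and -1.26 for Dusp4. The clones of the chr7 and chr3 deletions showed no such member difference.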

How the results depend on the processing

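Over all alternatives run, 2989 of 3130 values for single members kept direction and side of the threshold, 107 no longer passed, 13 newly passed and 21 changed sign. Of 1408 counts of genes or members, 84 moved by over 1.5 times. The cause was not tested.

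In the test against a 1.5-fold change, genes called fell to 1902 (from 11490) for chr2 against the 6 others, 2845 against chr7 and chr3, 2980 against chr9, 4303 against the parental line, 895 for chr9, 4004 for chr7 and 3287 for chr3 against the parental line, 2087 between the chr2 clones, 192 between the chr9 clones, 9 between the chr7 clones and 13 between the chr3 clones. Members lower were then 5 for chr2 against the 6 others (0 higher), 4 against chr7 and chr3, 1 for chr9 against the parental line, 2 each for chr7 and chr3, 1 between the chr2 clones and 3 between the chr9 clones (0 higher). By clone against the parental line they were 0 in chr9-F1, 4 in chr9-G9 and 2 in each of the chr7 and chr3 clones.

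With counts summed per line, genes called were 2183 for chr2 against the 6 others, 3244 against chr7 and chr3, 2254 against chr9 and 2265 against the parental line, and 34, 869 and 630 for chr9, chr7 and chr3 against it. Members lower were 5, 4, 3 and 4 for chr2 in that order and 0 for the rest, and 0 members were higher.

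Without a filter, 580 genes were called between the chr7 clones, 350 between the chr3 clones, and 2 members were higher in chr9-G9 than chr9-F1. Fitting only the lines compared gave 47 and 299 genes, 1 member lower in chr3-H7 than chr3-C2 and 2 lower in chr9-F1 than the parental line. DESeq2 gave 419 and 363 genes and 1 such member. Thinning left 1 member lower between the chr2 clones and 4 in chr3-H7.

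Against chr7 and chr3, against chr7, without chr9-G9 or with chr2-G5 alone, 0 members were higher. There Dusp4 took -0.13 against chr7 and chr3, -0.14 against chr7, -0.12 against chr3 and -0.44 with chr2-G5 alone. Egr1 took -0.36 against chr9, -0.26 against chr7 and -0.41 with chr2-G5 alone, and against chr3 it was higher and passed (0.90, edgeR adjusted p = 0.0108). Against the parental line it was 0.0021 with RLE size factors, 0.014 with only the lines compared and 0.097 summed per line. The chr7, chr3 and chr9-G9 choices were added after seeing the data.

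Leaving out 1 library gave 0 to 1 members higher in chr2 against the 6 others (Dusp4), 1 to 2 lower between the chr2 clones, 0 to 1 lower in chr9-F1, 1 to 2 higher in chr9-G9, and 3899 to 6591 genes between the chr9, 48 to 593 between the chr7 and 61 to 227 between the chr3 clones. Egr1 then ranged from -0.087 to 0.24 in chr2 against the 6 others, -0.21 to 0.087 against the parental line and -0.54 to 0.082 against chr9, and from -0.11 to 0.51 in chr9 against the parental line. Spred1 ranged from -0.097 to 0.026 between the chr2 clones.

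Replicate numbers did not pair the libraries: 0 of 100 same-numbered pairs had a correlation over 0.1. For 14 of 26 libraries the mean correlation was higher with same-numbered libraries than with differently numbered ones. With a replicate block 11364 genes were called in chr2 against the 6 others, and no member call changed.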
